A study of Mus musculus with 6 samples.

Results

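The genes described here are 9 mouse genes grouped under chloride, bicarbonate and sodium-proton exchange for acid secretion. Not all encode exchangers, since Ostm1 encodes a partner protein and Car2 an enzyme. They were taken by gene symbol from a table of 22601 genes, with earlier results of these data known, and all 9 had enough reads to be tested. They are Clcn7, Ostm1, Clcn3, Clcn5, Clcn6, Car2, Slc4a2, Slc4a7 and Slc9b2. The data are RNAseq read counts of 3 wild type (WT) and 3 Slc37a2 KO libraries, and the comparison asks whether loss of Slc37a2, a transporter of secretory lysosomes, altered the mRNA of these genes. The labels describe osteoclasts grown from bone marrow macrophages for 5 days in RANKL at 10 ng/ml with M-CSF at 2 ng/ml, and the study's account of its results also speaks of osteoclasts, whereas its RNAseq methods describe RNA of whole femurs and tibias. Mice of both groups were C57BL/6N, and the KO mice carried a gene-trapped tm2a allele made from embryonic stem cells of the KOMP consortium in every cell, not in osteoclasts alone. The headings of the table give, for every animal, the letter F, the usual mark of a female, an age of 11 weeks and an animal number that begins with K or L, while the RNAseq methods name male and female mice. WT libraries were K090, L080 and L082, and KO libraries were K089, L078 and L081. What the letter stands for is not given in the sources used here.

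An osteoclast dissolves bone mineral by pumping protons across its ruffled border, the folded membrane facing bone, with a vacuolar ATPase. Clcn7 encodes ClC-7, which exchanges chloride for protons in lysosomes and at the ruffled border and needs the partner protein encoded by Ostm1, and loss of either causes osteopetrosis, a disease of dense, unresorbed bone. Carbonic anhydrase (Car2) supplies protons and bicarbonate inside the cell, the anion exchanger AE2 (Slc4a2) sends the bicarbonate out in return for chloride, and the sodium-bicarbonate cotransporter NBCn1 (Slc4a7) and the sodium-proton exchanger NHA2 (Slc9b2) also move these ions in osteoclasts.

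Library totals ranged from 27552183 to 42522292 counts. Slc37a2 itself was at 2149 ± 292 CPM (counts per 1000000 counts of the library) for the WT and 38.1 ± 6.66 for the KO libraries (SD, n = 3 each), which is 1.77% of the WT level, and its log2 fold change was -5.82 (SE 0.16, adjusted p = 7.07e-04). This and every adjusted p below come from the quasi-likelihood test of edgeR, adjusted by Benjamini-Hochberg over all genes tested. CPM were further scaled by the trimmed mean of M-values (TMM), which corrects for differences in composition, except for sums over marker lists, which were left unscaled. The 12 osteoclast markers summed to 39478 to 69476 unscaled CPM over the 6 libraries. Macrophage markers summed to 3265 to 7336, those of osteoblasts and stroma to 572 to 1833, and the 2 red cell genes in the table to at most 0.0956. Bglap, which encodes the osteoblast protein osteocalcin, and the globin gene Hba-a1 had 2 counts each over all 6 libraries. Other genes of the osteoblast and stromal list were far higher, with 111149 counts for Col1a1 and 90125 for Col1a2. Macrophage marker sums were at 6539 or more in K090, L080 and L078 and at 3686 or less in L082, K089 and L081, so the libraries separated on these markers within both genotypes. Such sums rest mainly on their highest genes, such as Lyz2 (mean 2605 unscaled CPM) and Csf1r (1876) for macrophages and Mmp9 (23627) for osteoclasts. The macrophage list's median log2 CPM, less each gene's mean, split likewise. It was 0.45 or more in K090, L080 and L078, and -0.39 or less in L082, K089 and L081. In bulk RNA, fewer cells of a type and less RNA per cell cannot be told apart.

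None of the 9 genes was called different between the genotypes. Of them, 0 passed the adjusted threshold of 0.05, 0 had an unadjusted p below 0.05, and DESeq2 gave 0 on both counts. Over the 13483 genes tested, 0.00742% passed the adjusted threshold, which is Slc37a2 alone, and 0.712% passed the unadjusted one. The 3 KO values of a gene lay all above the 3 WT values for 1.5% of tested genes and all below for 2.81%, while for all 9 members the groups overlapped. The fitted log2 fold change was above 0 for 6 members and below 0 for 3, with a median of 0.16 beside -0.02 over all tested genes. Of all tested genes, 43.8% were above 0. For 8 of the 9 members the 95% interval of the log2 fold change lay inside -1 to 1, a range from a halving to a doubling, against 78.5% of tested genes. Slc4a2 was the exception.

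**Figure D1:**
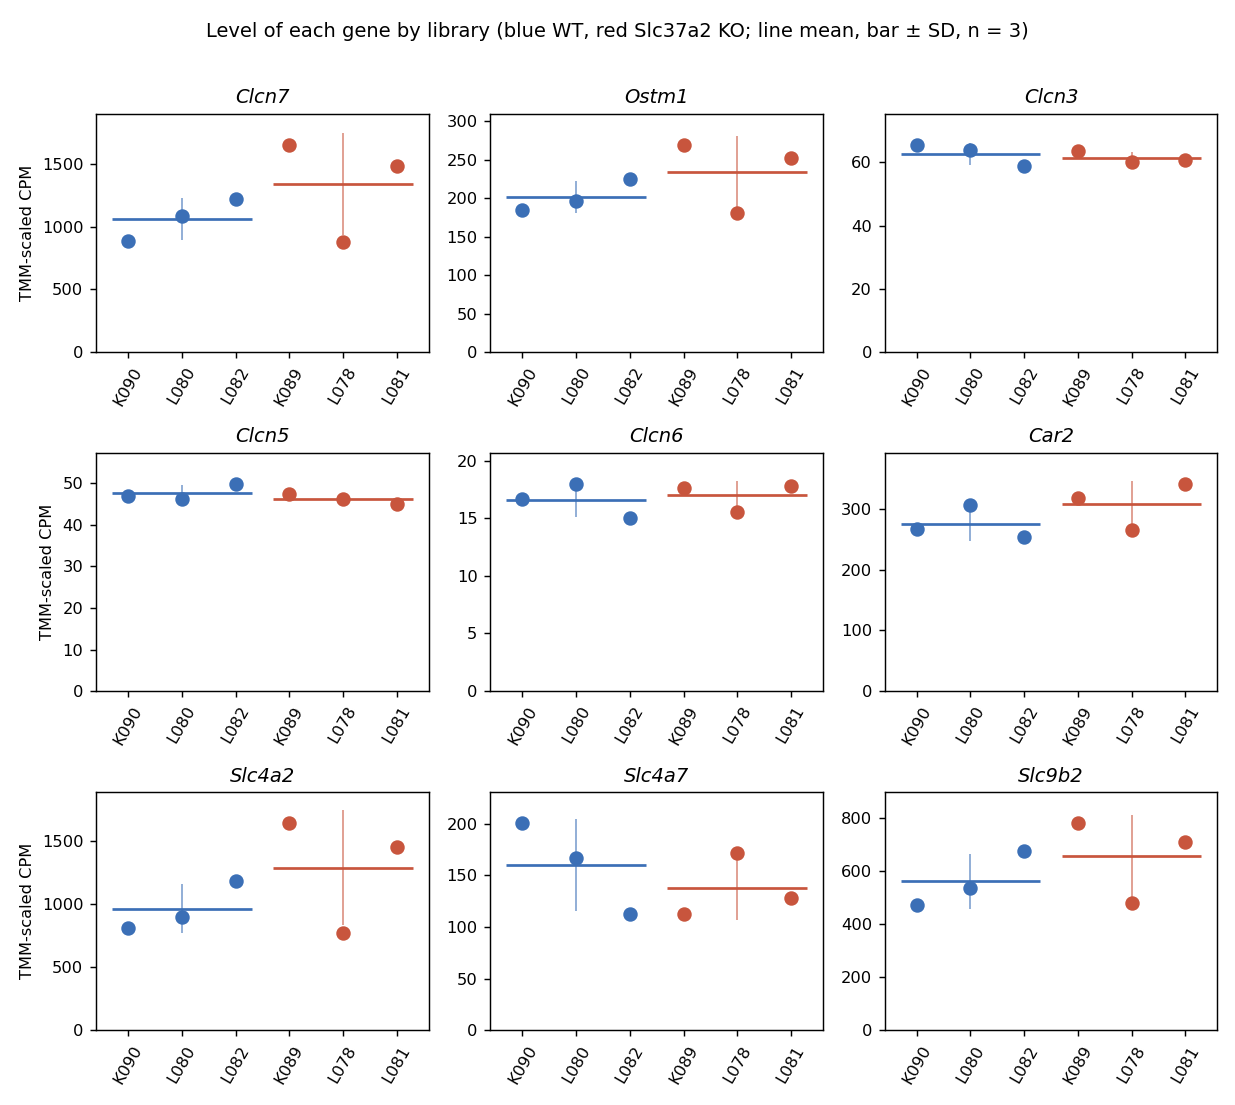
TMM-scaled CPM (y axis, from 0, a separate scale in each panel) of each of the 9 genes in the 3 WT (blue) and 3 KO (red) libraries (x axis), with the group mean as a line and ± SD as a bar. The KO library L078 sits beside the WT libraries K090 and L080 for Clcn7, Ostm1, Slc4a2 and Slc9b2, while the points for Clcn3, Clcn5 and Clcn6 are nearly level.

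Levels were compared between genes as CPM per kb of exon, using the merged exons of each gene. Clcn7 had the highest mean at 227 CPM per kb (SD 59.7 over 6 libraries), followed by Slc4a2 at 136 (SD 43.3), Car2 at 121 (SD 14.4) and Slc9b2 at 111 (SD 23.6). The ranges over the 6 libraries overlapped for each neighbouring pair in this order. Within every library, Clcn7 had more CPM than Slc4a2 and a shorter exon length (5291 against 8322 bases). Clcn7 was thus higher per kb than Slc4a2 in each library, although their ranges overlapped. Every library of Clcn7 (167 or more) was above every library of Car2 and Slc9b2 (142 or less). Ostm1 was lower at 30.2 CPM per kb (SD 5.10), then Slc4a7 at 9.77 (SD 2.40), and every library of the one was above every library of the other. Clcn5 at 4.10, Clcn3 at 3.64 and Clcn6 at 2.83 CPM per kb were the lowest. With the longest coding transcript as the length, an alternative chosen after seeing the data, Clcn3 passed Clcn5 and 7 of the 9 genes kept their place. The sizes of the gaps changed as well, with Clcn7 at 284, Slc4a2 at 265 and Ostm1 at 72.3 CPM per kb by that length.

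Clcn7 lies on the plus strand at chr17:25133391-25162104 of GRCm38 (mm10). Its WT level was 888 CPM in K090, 1086 in L080 and 1221 in L082, and its KO level was 1653 in K089, 882 in L078 and 1487 in L081. K089 and L081 stood above all 3 WT libraries, and L078 was the lowest of the 6. The means were 1065 ± 167 for the WT and 1341 ± 406 for the KO libraries (SD, n = 3 each), and the log2 fold change was 0.33 (SE 0.25, 95% interval -0.27 to 0.94, adjusted p = 0.969, quasi-likelihood test of edgeR). An exact two-sided permutation test over the libraries gave p = 0.5, where 0.1 is the smallest it can give with 3 against 3. Clcn7 ranked 61st of all genes tested by mean CPM. Among the 8 CLC chloride transporter and channel genes in the table it held 88.2% to 92.6% of the family's level per kb, with Clcn4 next at 5.06%.

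Ostm1, the subunit that stabilises ClC-7, lies on the plus strand at chr10:42583822-42702459, and 410 bases of its exons overlap the antisense gene Gm15200. It measured 184, 196 and 225 CPM in the WT libraries K090, L080 and L082, and 269, 180 and 251 CPM in the KO libraries K089, L078 and L081. From high to low, the 6 libraries fell in the same order for Ostm1 as for Clcn7, an order that Slc4a2 also had. The first principal component over all tested genes, the main axis on which the libraries differed, held 57.7% of the variance of log2 CPM. Its scores had this order too, from 40.1 in K089 to -34.3 in L078, so the order is not particular to these genes. The log2 fold change was 0.21 (SE 0.16, 95% interval -0.18 to 0.60), and the exact permutation p was 0.4. Ostm1 counts were 19.0% ± 1.43 (SD, n = 3) of Clcn7 counts in WT and 17.9% ± 2.27 (SD, n = 3) in KO (exact permutation p = 0.5). These counts were not divided by exon length, which is 7211 bases for Ostm1 and 5291 for Clcn7. Across the libraries the Clcn7 level varied by 1.87-fold, and the ratio lay between 16.2% and 20.7%. It was 16.2% in K089 and 16.9% in L081, the libraries with most Clcn7. In K090 and L078, those with least, it was 20.7% and 20.5%. Clcn7 is the denominator of this ratio and varied more than Ostm1 (1.49-fold), so the ratio's fall with Clcn7 is no separate finding.

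Promoter windows from the RefSeq annotation of GRCm38.p6, from 250 bases before to 50 after a transcription start, were found for 8 members, with 12 windows in all. They were searched on both strands for CACGTG, the palindromic E-box that the MITF family of transcription factors binds, for its variant CATGTG, and for TGANTCA, the AP-1 motif. These factors are known regulators of osteoclast genes, and the E-box lies in many lysosomal promoters. CACGTG was in 2 of the 12 windows, a window each of Clcn7 and Clcn6, and in 7.15% of 32851 windows of all genes. CATGTG was in 3 of the 12, a window each of Clcn5, Clcn6 and Clcn7, against 14.15% of all windows, and TGANTCA was in 0 against 7.81%. The 80 bases below are those just before the transcription start in the windows of the CACGTG holders. They are written 5′ to 3′ on the strand of the gene, with CACGTG in capitals. The Clcn7 window holds 2 matches, at positions -15 and 8 from the start, and the match at 8 lies beyond the printed stretch. The Clcn7 stretch is chr17:25133311-25133390 on the plus strand and the Clcn6 stretch chr4:148038814-148038893 on the minus strand of GRCm38.p6.
Clcn7: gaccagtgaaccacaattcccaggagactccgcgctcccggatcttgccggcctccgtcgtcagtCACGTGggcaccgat
Clcn6: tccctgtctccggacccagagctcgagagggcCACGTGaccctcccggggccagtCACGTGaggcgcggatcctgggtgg
A match of letters is a description of the window and no evidence of binding. The highest library was 1.87 times the lowest for Clcn7 and 1.19 times for Clcn6. Among members whose windows held no CACGTG, the same measure ran from 1.11 for Clcn5 to 2.12 for Slc4a2. Whether the motif bears on this spread was not tested.

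Clcn3, Clcn5 and Clcn6 encode chloride-proton exchangers of endosomes and lysosomes, and they were the least variable of the 9 genes. Clcn3 (chr8:60910389-60983300, minus strand) was at 65.5, 63.8 and 58.8 CPM in the WT libraries K090, L080 and L082, and at 63.6, 60.2 and 60.7 CPM in the KO libraries K089, L078 and L081. Its log2 fold change was -0.03 with a 95% interval of -0.18 to 0.13. A small change of either sign lies inside that interval. The lowest and highest of the 6 libraries, taken over both genotypes, differed by 1.11-fold. Clcn5 (chrX:7153810-7319358, minus strand) had 47.7 ± 1.85 CPM for the WT and 46.2 ± 1.26 for the KO libraries (SD, n = 3 each), with a log2 fold change of -0.05 and an interval of -0.19 to 0.09. Clcn6 (chr4:148004259-148038821, minus strand) was the lowest of the members at 469 to 702 counts per library, and had 16.6 ± 1.45 CPM for the WT and 17.0 ± 1.24 for the KO libraries (SD, n = 3 each). Its log2 fold change was 0.04 with an interval of -0.22 to 0.29. The sign of the fold change of all 3 genes depended on which libraries were kept.

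Car2 lies on the plus strand at chr3:14886273-14900770 and encodes the cytosolic carbonic anhydrase whose loss in humans causes osteopetrosis with renal tubular acidosis. The WT libraries K090, L080 and L082 had 268, 307 and 253 CPM, and the KO libraries K089, L078 and L081 had 318, 266 and 341 CPM. L081 and K089 were again above the WT values, but here L082 was the lowest of the 6 and L078 lay just above it. The means were 276 ± 27.9 for the WT and 309 ± 38.4 for the KO libraries (SD, n = 3 each), with a log2 fold change of 0.16 (SE 0.12, 95% interval -0.13 to 0.45) and an exact permutation p of 0.3. Car2 held 84.5% to 88.3% of the level per kb of the 14 carbonic anhydrase genes in the table. Car13 was next at 10.2%.

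Slc4a2, which encodes the chloride-bicarbonate exchanger AE2, lies on the plus strand at chr5:24423837-24440950. Its exons overlap 1141 bases of Fastk and 101 bases of Gm22333 on the opposite strand, and whether the counting used strand is not given in the sources used here. Levels were 810 CPM in K090, 903 in L080 and 1186 in L082 for WT, and 1643 in K089, 775 in L078 and 1452 in L081 for KO. Slc4a2 had the largest spread of the members, with 2.12-fold between the highest and lowest library, both of which were KO. The log2 fold change was 0.42 (SE 0.30, 95% interval -0.30 to 1.13, adjusted p = 0.969, quasi-likelihood test of edgeR), and the exact permutation p was 0.4. An increase above 2-fold was therefore inside the interval for this gene. Slc4a2 held 87.0% to 95.3% of the level per kb of the 8 Slc4 genes in the table.

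Slc4a7 (chr14:14702279-14799940, plus strand) encodes the cotransporter NBCn1, which brings sodium and bicarbonate into the cell. It measured 200 CPM in K090, 167 in L080 and 112 in L082 for WT, and 112 in K089, 172 in L078 and 128 in L081 for KO. Libraries that were high for Clcn7 and Slc4a2 were low for Slc4a7, and L078 was the highest KO library for Slc4a7 and for no other member. The log2 fold change was -0.22 (SE 0.25, 95% interval -0.81 to 0.38), and the exact permutation p was 0.7. As a description chosen after the values were seen, Slc4a7 counts were 24.7%, 18.5% and 9.45% of Slc4a2 counts in K090, L080 and L082, and 6.82%, 22.2% and 8.82% in K089, L078 and L081. The ratio varied more within each genotype than its means of 17.6% in WT and 12.6% in KO differed. Here too the counts were not divided by exon length, which is 15205 bases for Slc4a7 and 8322 for Slc4a2.

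Slc9b2 lies on the plus strand at chr3:135307700-135345387 and encodes NHA2, a sodium-proton exchanger that is induced as osteoclasts form. WT libraries K090, L080 and L082 had 471, 537 and 676 CPM, and KO libraries K089, L078 and L081 had 779, 480 and 708 CPM. K089 and L081 exceeded all WT libraries, and L078 lay between K090 and L080. The log2 fold change was 0.22 (SE 0.21, 95% interval -0.29 to 0.74), and the exact permutation p was 0.4. Per kb, Slc9b2 held 69.0% to 78.6% of the level of the 10 Slc9 genes in the table.

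**Figure D2:**
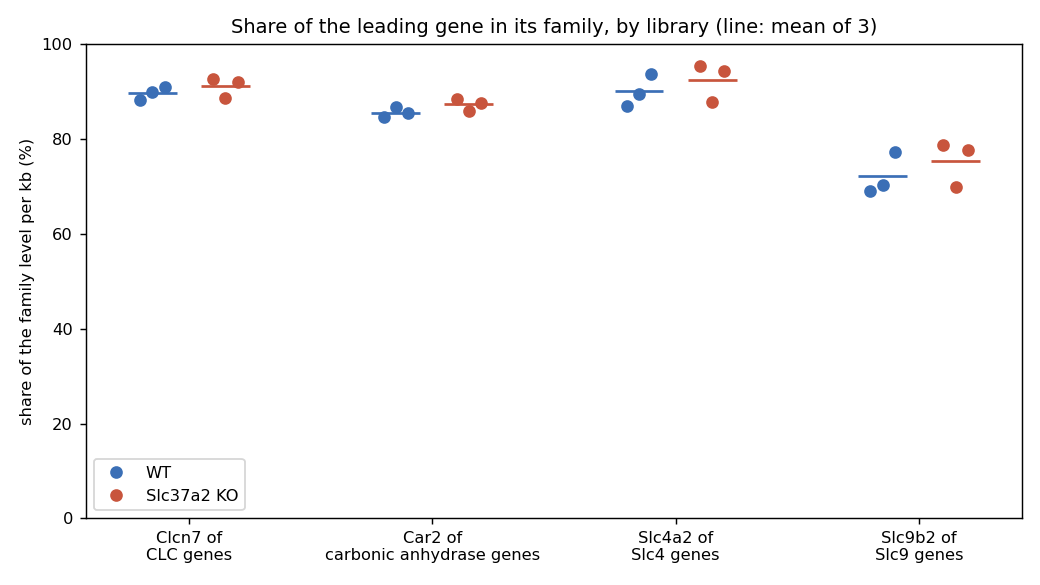
Share of the family's summed CPM per kb (y axis, percent) held by Clcn7, Car2, Slc4a2 and Slc9b2 in each WT (blue) and KO (red) library, with lines at the means of 3. Each gene held most of its family's level in every library, from 69.0% for Slc9b2 in K090 to 95.3% for Slc4a2 in K089, and the groups overlapped for all 4 genes.

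For the 5 most variable members, the genotypes differed more between the K libraries than among the L libraries. Between the K libraries, 1 of each genotype, the log2 CPM of K089 exceeded that of K090 by 1.02 for Slc4a2, 0.90 for Clcn7, 0.73 for Slc9b2 and 0.55 for Ostm1, and Slc4a7 was lower by a difference of -0.84. Among the L libraries, 2 of each genotype, the difference of KO minus WT was 0.04 for Slc4a2, -0.01 for Clcn7, -0.05 for Slc9b2, 0.02 for Ostm1 and 0.12 for Slc4a7. The differences for these 5 genes over all libraries thus came mostly from the K pair, which has no replicate. The small L differences are means over KO libraries that lay apart. For Clcn7, Ostm1, Slc4a2 and Slc9b2, L078 was below L080 and L082 while L081 was above them. For Car2 the difference was 0.25 in the K pair and 0.11 among the L libraries, and for Clcn5 it was 0.02 and -0.08, the larger size being among the L libraries. Whether the letters differed in the effect of the genotype was not tested.

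**Figure D3:**
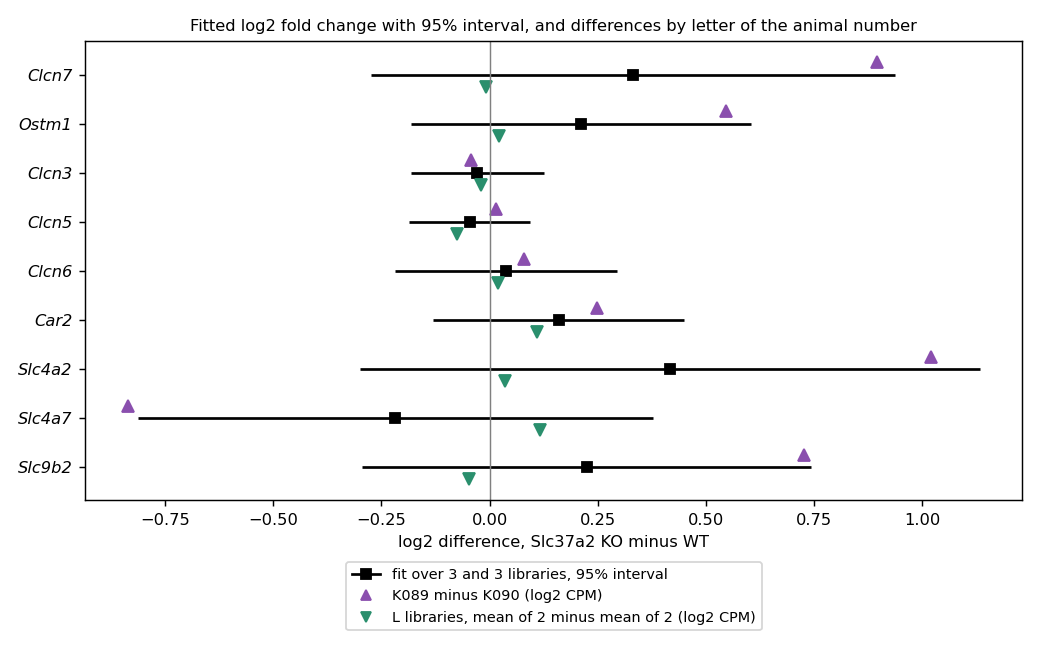
Log2 difference, KO minus WT (x axis), for the 9 genes (y axis): squares are fitted log2 fold changes with 95% intervals, upward triangles the K pair and downward triangles the L libraries. Every interval includes 0, and the upward triangles of Clcn7, Ostm1, Slc4a2, Slc4a7 and Slc9b2 lie far from 0 while the downward ones lie between -0.05 and 0.12.

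The values also depended on L078. When the libraries were left out in turn, only the fit without L078 brought any member to an unadjusted p below 0.05. That fit did so for 5 members, Clcn7 (log2 fold change 0.56), Ostm1 (0.37), Car2 (0.26), Slc4a2 (0.68) and Slc9b2 (0.41), and in all 5 the remaining KO libraries lay above the 3 WT libraries, as they did for 19.6% of all tested genes. In the same fit 20.1% of all tested genes had an unadjusted p below 0.05, and the smallest adjusted p of a member was 0.227, so 0 members were called (quasi-likelihood test of edgeR). Without K089 the log2 fold changes of Clcn7, Ostm1 and Slc4a2 were 0.18, 0.12 and 0.23. The summed CPM of the 9 genes was 2951, 3324 and 3796 in K090, L080 and L082, and 4904, 2877 and 4492 in K089, L078 and L081, so that L078 had the lowest sum of all and the other KO libraries the highest.

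Osteoclast and macrophage markers differed between libraries together with Clcn7, Ostm1, Slc4a2, Slc4a7 and Slc9b2. The osteoclast sum was 39478, 51635 and 56572 unscaled CPM in K090, L080 and L082, and 69476, 43985 and 63317 in K089, L078 and L081. It was highest in K089 and L081, as were Clcn7, Ostm1, Slc4a2 and Slc9b2. The macrophage sum ran the other way, at 7336, 6539 and 3483 in WT and 3265, 6774 and 3686 in KO, in the same order of libraries. In that order, the sum of the 10 proliferation genes was 1168, 811 and 803 in WT and 498, 1141 and 638 in KO, and that of the 10 interferon response genes was 150, 74.0 and 18.3 in WT and 11.6, 90.1 and 26.0 in KO. Osteoblast and stromal genes summed to 812, 1194 and 1529 in WT and 630, 1833 and 572 in KO, again in that order, which is not the order of any member. None of these lists had a called gene, and of their members 11 of 12 osteoclast markers had a log2 fold change above 0 (median 0.24; Mmp14 -0.02, Ctsk 0.45), against 3 of 12 macrophage markers (median -0.32; Mrc1 -0.72, Ccr2 0.38). All 8 tested stromal genes (median -0.20; Cxcl12 -0.60, Ibsp -0.07), all 10 proliferation genes (median -0.25; Cdk1 -0.29, Birc5 -0.20) and all 10 interferon genes (median -0.92; Usp18 -1.17, Cxcl10 -0.58) were below 0. Over all tested genes, 43.8% were above 0. The part of these markers in the values of the 9 genes was not tested.

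**Figure D4:**
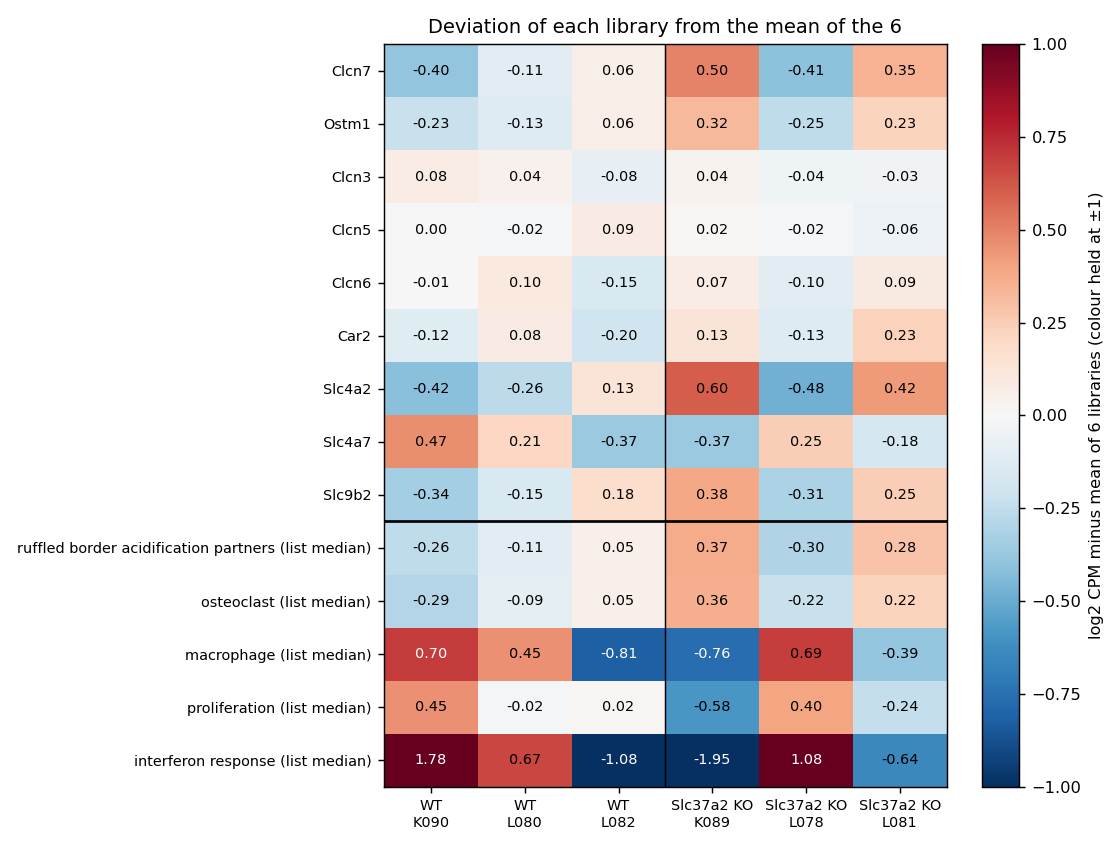
Log2 CPM of each library minus the mean of the 6, printed in each cell and coloured from -1 (blue) to 1 (red), for the 9 genes and, below the line, for the median gene of 5 lists. Clcn7, Ostm1, Slc4a2 and Slc9b2 share signs with the osteoclast list in every library, and Slc4a7 shares signs with the macrophage list.

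By the distance between centred log2 CPM profiles over the 6 libraries, the genes nearest to Clcn7 were Acp5, which encodes tartrate-resistant acid phosphatase (root mean square distance 0.04 log2 units), Chpt1 (0.04) and St8sia4 (0.04). Nearest to Slc4a2, the member with the largest spread, were 4930523C07Rik (0.04), Prkag2 (0.05) and Retreg1 (0.05).

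Genes that work beside the members were described by lists in the same fit. The 9 partners at the acidifying membrane include V-ATPase subunits and the trafficking proteins Snx10 and Plekhm1. These partners had 0 called genes and 9 log2 fold changes above 0, against 43.8% of tested genes, with a median of 0.24. They ran from 0.09 for Tmem175, a lysosomal ion channel, to 0.30 for Tcirg1, the a3 subunit of the proton pump, and for all 9 the groups overlapped. Tcirg1 was at 2020 ± 298 CPM for the WT and 2480 ± 597 for the KO libraries (SD, n = 3 each). The MITF family had 0 of 4 genes called and 4 log2 fold changes below 0, from -0.13 for Tfec to -0.05 for Tfeb. For Mitf and Tfec the 3 KO values were all below the 3 WT values, as for 2.81% of tested genes. Mitf was at 96.6 ± 2.77 CPM for the WT and 91.3 ± 1.61 for the KO libraries (SD, n = 3 each).

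The remaining genes of each transport class gave no call either. Of 34 other chloride channel and transporter genes, 27 were tested, 17 had a log2 fold change above 0 and 10 below, and the median was 0.04. The ends were Clic6 at -0.43 and Clic5 at 0.49, both intracellular chloride channel proteins. Of other carbonic anhydrase and bicarbonate transporter genes, 12 were tested, with 7 above 0, 5 below and a median of 0.02, from -0.46 for the mitochondrial carbonic anhydrase Car5b to 0.64 for the cotransporter Slc4a4. Slc4a4 had 99 counts over all 6 libraries, and its 95% interval was -0.64 to 1.91. Of other sodium-proton exchange genes, 10 were tested, with 5 above 0, 5 below and a median of -0.01. Slc9a9, an endosomal exchanger, had the lowest value at -0.69 with an interval of -2.64 to 1.26, and Slc9a5 the highest at 0.18. Groups did not overlap for 2 of these 10 genes, Slc9a7 (KO below WT, log2 fold change -0.18) and Slc9a8 (KO above WT, 0.09), against 2.81% and 1.5% of tested genes.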

How the data were processed

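The authors deposited, per library, whole-number read counts of 22601 genes, not normalized. Submitters' processing notes name bcl2fastq 2.20.0.422, edgeR 3.30.3 and build mm10. Not given in the sources used here are the aligner, the counting tool, its annotation and its strand setting. Deposited columns of log2 fold change, mean log2 CPM, likelihood ratio score, p-value and FDR hold results of the authors' own comparison and were not used. A shorter deposited list of 1000 genes matched the first 1000 genes of the table. Columns were assigned to genotype by their headings, which do not tie them to replicate numbers, and 0 columns belonged to other samples. The 6 libraries carry 6 animal numbers, and p-values measure the spread between these libraries. The most similar pair of libraries differed beyond sampling noise (chi-square per degree of freedom 7.00).

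Counts were fitted with edgeR 4.0.16 (R 4.3.3): filterByExpr, which kept 13483 genes, TMM scaling and glmQLFTest with 2 groups, with Benjamini-Hochberg adjustment over the genes tested and 95% Wald intervals. DESeq2 1.42.0 was an alternative. CPM per kb used GENCODE M21 exons. The log2 CPM had a prior count of 2. Members and lists were chosen with earlier results of these data known. Genes named beside the members are the called genes and the ends of each list, and the 3 nearest profiles to Clcn7 and to the member with the largest SD. Other genes named beyond that rule, such as Mitf, Snx10, Clcn4 and Car13, the ratio of Slc4a7 to Slc4a2, and the genes whose groups did not overlap were chosen after their values were seen.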

Additional observations from a re-analysis of the deposited data

How the results depend on the processing

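Precision was limited by 3 libraries per genotype with a biological coefficient of variation of 20.8%. Members called stayed at 0 under every alternative, as did the pathway genes called. Genes called in the whole table were 2, Slc37a2 and En2, instead of 1 with no filter on low counts, with DESeq2's Wald test and with edgeR's likelihood ratio test. Leaving out each library in turn gave log2 fold changes of -5.94 to -5.69 for Slc37a2 and medians of 0.10 (without KO L081) to 0.26 (without KO L078) for the 9 members, and the median was 0.04 within letter L. The sign changed for Clcn3 without WT K090 (0.0051) and without KO L081 (0.0024), and for Clcn5 (0.0110) and Clcn6 (-3.68e-05) without WT L082, where leaving out each library gave -0.0471 to 0.0051 for Clcn3, -0.0663 to 0.0110 for Clcn5 and -3.68e-05 to 0.10 for Clcn6. Within letter L, Slc4a7 was at 0.10 and Slc9b2 at -0.0284. The other 120 alternatives for single members kept the sign and the side of the threshold. The cause was not tested. A fit with the letter of the animal number as a term called 0 members, with a median of 0.16 and a log2 fold change of -5.83 for Slc37a2, and the letter does not match animals across genotypes. No paired analysis was possible because the columns carry animal numbers and no replicate numbers.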
